A study of Arabidopsis thaliana with 32 samples.

Results

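Ethylene perception and signalling was followed in 10 Arabidopsis thaliana genes, chosen by locus from the 27655 genes of the deposited tables. They were the 5 receptors ETR1 (AT1G66340), ETR2 (AT3G23150), ERS1 (AT2G40940), ERS2 (AT1G04310) and EIN4 (AT3G04580), the kinase CTR1 (AT5G03730), the membrane protein EIN2 (AT5G03280), the transcription factors EIN3 (AT3G20770) and EIL1 (AT2G27050), and the F-box protein EBF2 (AT5G25350). The study asked how messenger RNA and its association with ribosomes respond to magnesium deficiency in roots and shoots. All plants, those in normal medium included, carried p35S:HF-RPL18, an epitope-tagged ribosomal protein driven by the constitutive 35S promoter. They were 6 weeks old, had been grown in hydroponic culture with a day of 10 h light and 14 h dark, and spent 1 day in a medium in which sodium sulfate replaced magnesium sulfate (MgD) or in normal medium (CK). Tagged ribosomes were captured by affinity to give TRAP RNA, and total RNA was extracted beside it, so that the 24 libraries formed 8 groups of 3: Root TRAP MgD, Root TRAP CK, Root Total MgD, Root Total CK, Shoot TRAP MgD, Shoot TRAP CK, Shoot Total MgD and Shoot Total CK. The series calls its replicates independent without naming plants or batches, so p-values here measure the spread between these libraries only.

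Ethylene is a gaseous plant hormone. Its receptors sit in the membrane of the endoplasmic reticulum and, while ethylene is absent, keep the kinase CTR1 active, which phosphorylates EIN2 and holds the pathway off. When ethylene binds, CTR1 is released, the C-terminal part of EIN2 is cut free, EIN3 and EIL1 accumulate and activate ethylene response genes, and the EIN2 fragment also limits translation of the transcripts of EBF1 and EBF2, the F-box proteins that send EIN3 and EIL1 to degradation. Transcripts of ETR2, ERS1, ERS2 and EBF2 are themselves known to be induced by ethylene.

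Promoter sequences are shown for ETR2 and EBF2, the members whose levels differed most, on a log scale, between libraries of one root group, and for ETR1, a receptor whose levels differed little. Each is the 250 bases before the annotated transcript start in RefSeq's TAIR10.1, read along the gene's own strand, with capitals marking TACAT, or ATGTA where it lies on the other strand, the core motif bound by EIN3 and EIL1.
ETR2, chr3:8254309-8254558, plus strand: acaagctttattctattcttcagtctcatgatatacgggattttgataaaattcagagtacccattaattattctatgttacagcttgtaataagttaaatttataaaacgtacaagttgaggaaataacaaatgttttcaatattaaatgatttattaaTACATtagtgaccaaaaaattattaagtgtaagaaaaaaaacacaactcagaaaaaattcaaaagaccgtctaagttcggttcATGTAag
EBF2, chr5:8797350-8797599, minus strand: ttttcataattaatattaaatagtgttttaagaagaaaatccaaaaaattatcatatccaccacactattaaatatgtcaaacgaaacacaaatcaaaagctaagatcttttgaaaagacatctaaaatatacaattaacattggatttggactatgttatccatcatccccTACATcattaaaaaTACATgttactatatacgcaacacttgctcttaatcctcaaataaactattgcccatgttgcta
ETR1, chr1:24733912-24734161, plus strand: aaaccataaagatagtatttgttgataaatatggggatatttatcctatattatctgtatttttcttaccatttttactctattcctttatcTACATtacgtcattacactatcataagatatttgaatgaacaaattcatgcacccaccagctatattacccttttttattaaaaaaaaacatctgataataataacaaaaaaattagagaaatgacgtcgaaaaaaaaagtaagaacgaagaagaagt
The motif began 90 and 7 bases before the start of ETR2, 78 and 64 bases before that of EBF2, and 158 bases before that of ETR1. It occurred 3 times in the windows of EIN2 and EIN3, 1 time in that of ERS2, and had no match in those of ERS1, EIN4, CTR1 and EIL1. EBF1, not a member, had no match either. Its root libraries differed more within groups than those of ETR2 and EBF2, and a link of motif to spread was not tested. These matches describe the letters only. Of 27443 counted genes with such a window, 52% held at least 1 match, 20.2% at least 2 and 6.45% at least 3, with overlapping matches counted. In the EIN2 window 2 matches, which began 61 and 57 bases before the start, share a base, and in the windows printed none overlap. The windows of ERS1 and EIN4 reach into the neighbouring genes AT2G40950 and AT3G04590.

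Library totals ranged from 6147531 to 41472378 counts, and all 10 members passed the filter on low counts. The tissue labels were met by their markers: 8 leaf genes, such as the Rubisco small subunit RBCS1A, summed to between 55000 and 71200 TPM in shoot libraries and between 268 and 1610 TPM in root libraries. TPM is a level scaled to gene length, with the same sum in every library. Libraries carry a second number, 1 to 4, in the submitters' own library names, and the 3 root libraries of number 4 stood apart in ETR2, so calls of members that change without them are given with and without them. Every shoot TRAP library carried the lane label L002 and all others L001, so that lane and RNA type in shoots cannot be told apart. ETR1 shares 38 of its exon bases with AT1G66345 on the same strand, ERS1 shares 56 with AT2G40935 and EBF2 shares 439 with AT5G25340, both on the opposite strand, and no source used here says whether the counting used strand. Reads in those bases cannot be assigned to one gene with certainty.

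Per length, EIN3 was the most abundant member in each of the 8 groups, and the receptors ETR2 and ERS2 were the least abundant in shoots. EIN3 averaged 160 ± 5.45 TPM in Root TRAP MgD, 134 ± 5.80 in Root TRAP CK, 161 ± 13.6 in Root Total MgD and 157 ± 14.0 in Root Total CK (SD, n = 3 each). In shoots it averaged 133 ± 16.8 TPM in Shoot TRAP MgD, 123 ± 6.11 in Shoot TRAP CK, 80.5 ± 3.75 in Shoot Total MgD and 78.6 ± 2.09 in Shoot Total CK. Its paralog EIL1 stood far below it, between 15.6 and 33.7 TPM as group means. EIN2 held an intermediate level, with group means between 27.7 and 52.0 TPM, and CTR1 between 12.8 and 32.7 TPM.

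Among the receptors, ERS1 had the highest mean level of TPM in all 8 groups. In Root Total MgD it averaged 68.2 ± 6.33 TPM and in Root Total CK 80.1 ± 15.8 TPM, against 17.5 ± 0.899 and 18.2 ± 0.839 TPM in Shoot Total MgD and Shoot Total CK (SD, n = 3 each). ETR1 and EIN4 lay next to each other, with means between 12.0 and 25.6 TPM for ETR1 and between 9.92 and 22.6 TPM for EIN4, and their ranges overlapped in every group. ERS2 averaged between 1.90 and 4.94 TPM over the 8 groups. ETR2 averaged between 1.37 and 2.55 TPM in shoots and between 4.25 and 13.6 TPM in roots, where, on a log scale, its libraries differed among themselves more than those of any other receptor. For Root Total MgD replicate 3 the deposited TPM came from about 11727654 reads and the deposited counts from 6147531, so that its 2 columns differ.

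**Figure D1:**
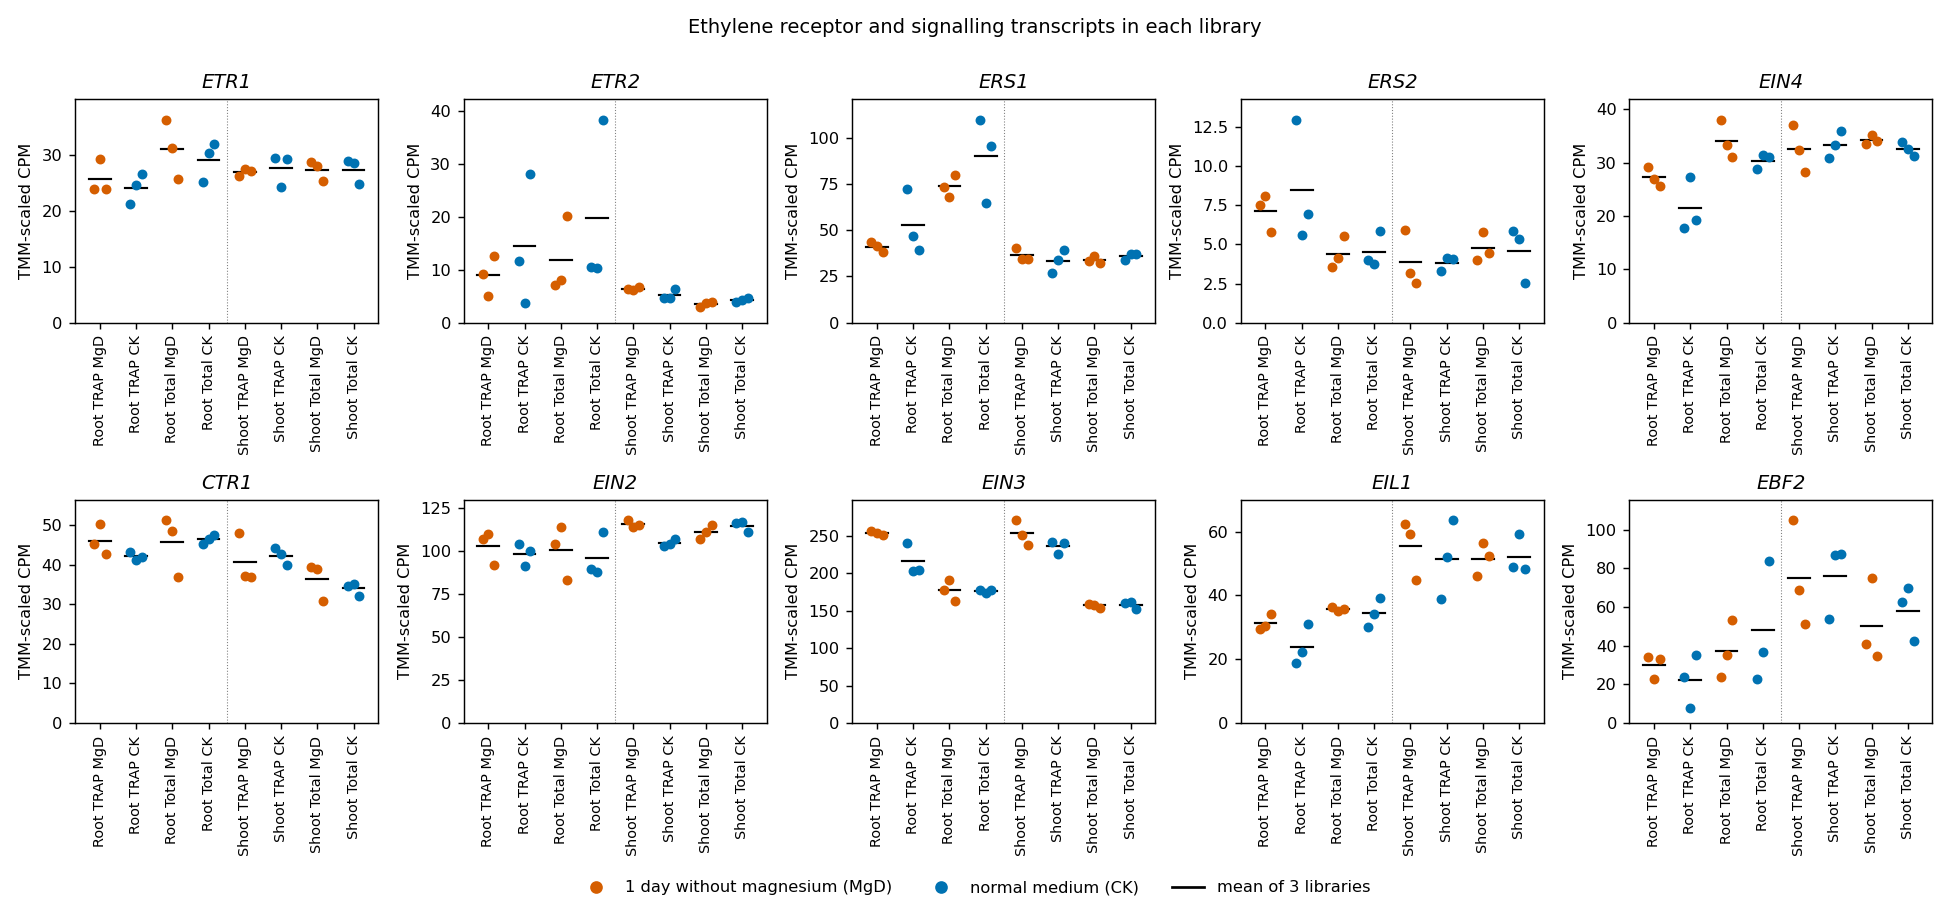
Level of each of the 10 transcripts in every library, in TMM-scaled CPM (vertical axes start at 0), for the 4 root groups left of the dotted line and the 4 shoot groups right of it. Points are libraries and bars are means of 3. ETR2 is high in single root libraries, up to 38.4 in Root Total CK, while EIN3 libraries of a group lie close together.

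The magnesium comparison asked whether 1 day without magnesium altered these transcripts. None of the 10 passed edgeR's quasi-likelihood F test after Benjamini-Hochberg adjustment in any of the 4 comparisons of MgD with CK, and neither did any other gene (0% of 20311 genes tested in root total RNA, 0% in root TRAP RNA, and 0% of 19341 in shoot total and in shoot TRAP RNA). Of the 40 member tests, 1 had an unadjusted p under 0.05, that of EIL1 in root TRAP RNA, while over all genes 503 and 2284 did so in root total and TRAP RNA and 355 and 1433 in shoot total and TRAP RNA. DESeq2 called no member either, and 1, 169, 0 and 16 genes in the same order. The 8 leaf markers summed to between 268 and 454 TPM in Root Total MgD, against 728 to 892 TPM in Root Total CK, with 7 of 8 at an unadjusted p under 0.05 and none called, and the part of this in the values of the members was not tested.

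By counts ETR2, a receptor of the second subfamily, had the largest difference among the members, a lower mean level in MgD roots. In total RNA it had 7.17, 8.01 and 20.2 CPM (counts scaled to library size by TMM, as are all CPM here) in Root Total MgD, against 10.6, 10.4 and 38.4 CPM in Root Total CK. A single library of each group was high, and the groups overlapped. In deposited TPM, ETR2 was at 4.83, 5.6 and 27.3 in Root Total MgD, against 6.37, 7.46 and 27.1 in Root Total CK. The high library of Root Total MgD is replicate 3, whose TPM and counts differ, and in TPM the 2 high libraries were level. The log2 fold change was -0.78 ± 0.72 (SE, edgeR adjusted p 1, with n = 3 and 3), with a 95% interval of -2.36 to 0.80. In TRAP RNA ETR2 had 9.26, 5.09 and 12.5 CPM in Root TRAP MgD, against 11.6, 3.69 and 28.1 CPM in Root TRAP CK. Again the groups overlapped, with a log2 fold change of -0.69 ± 0.72 (edgeR adjusted p 0.751). The sign turned without Root Total CK replicate 3 (0.14) in total RNA and without Root TRAP CK replicate 3 (0.23) in TRAP RNA, both libraries of number 4.

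ERS1, a receptor without a receiver domain, was at 43.7, 41.5 and 38.0 CPM in Root TRAP MgD, against 72.3, 46.8 and 39.1 CPM in Root TRAP CK. The highest CK library stood above the rest and the groups overlapped (log2 fold change -0.36 ± 0.23, edgeR adjusted p 0.573). EIN4 had 29.2, 26.9 and 25.7 CPM in Root TRAP MgD, against 17.8, 27.4 and 19.3 CPM in Root TRAP CK, where 1 CK library lay within the MgD range (0.35 ± 0.16, edgeR adjusted p 0.448). For ETR1 and ERS2 the 4 log2 fold changes lay between -0.24 and 0.10, and the intervals of ERS2 reached from -0.91 to 0.74.

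Downstream of the receptors, no transcript passed the test either. CTR1, the kinase that holds the pathway off, had log2 fold changes between -0.06 and 0.13 and EIN2 between -0.08 and 0.14 over the 4 comparisons. EIN2 did not overlap between Shoot TRAP MgD (118, 114 and 115 CPM) and Shoot TRAP CK (103, 104 and 107 CPM). How often groups failed to overlap over all genes was not counted, here or below. EIN3 had 256, 254 and 251 CPM in Root TRAP MgD, against 240.0, 203 and 204 CPM in Root TRAP CK, so that these groups did not overlap. Its log2 fold change there was 0.24 ± 0.12 (edgeR adjusted p 0.490), with a 95% interval of -0.03 to 0.50, and the other 3 of its comparisons gave 0.01, -0.04 and 0.10. EIL1 had 29.5, 30.4 and 34.3 CPM in Root TRAP MgD, against 18.7, 22.2 and 31.0 CPM in Root TRAP CK. The third CK library lay among the MgD libraries, and the log2 fold change was 0.39 ± 0.18 (unadjusted p 0.0448, edgeR adjusted p 0.436). EBF2 was too variable for a narrow estimate: its 95% interval was -1.55 to 0.83 in root total RNA, -0.76 to 1.63 in root TRAP RNA, -1.14 to 0.64 in shoot total RNA and -0.90 to 0.86 in shoot TRAP RNA.

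**Figure D2:**
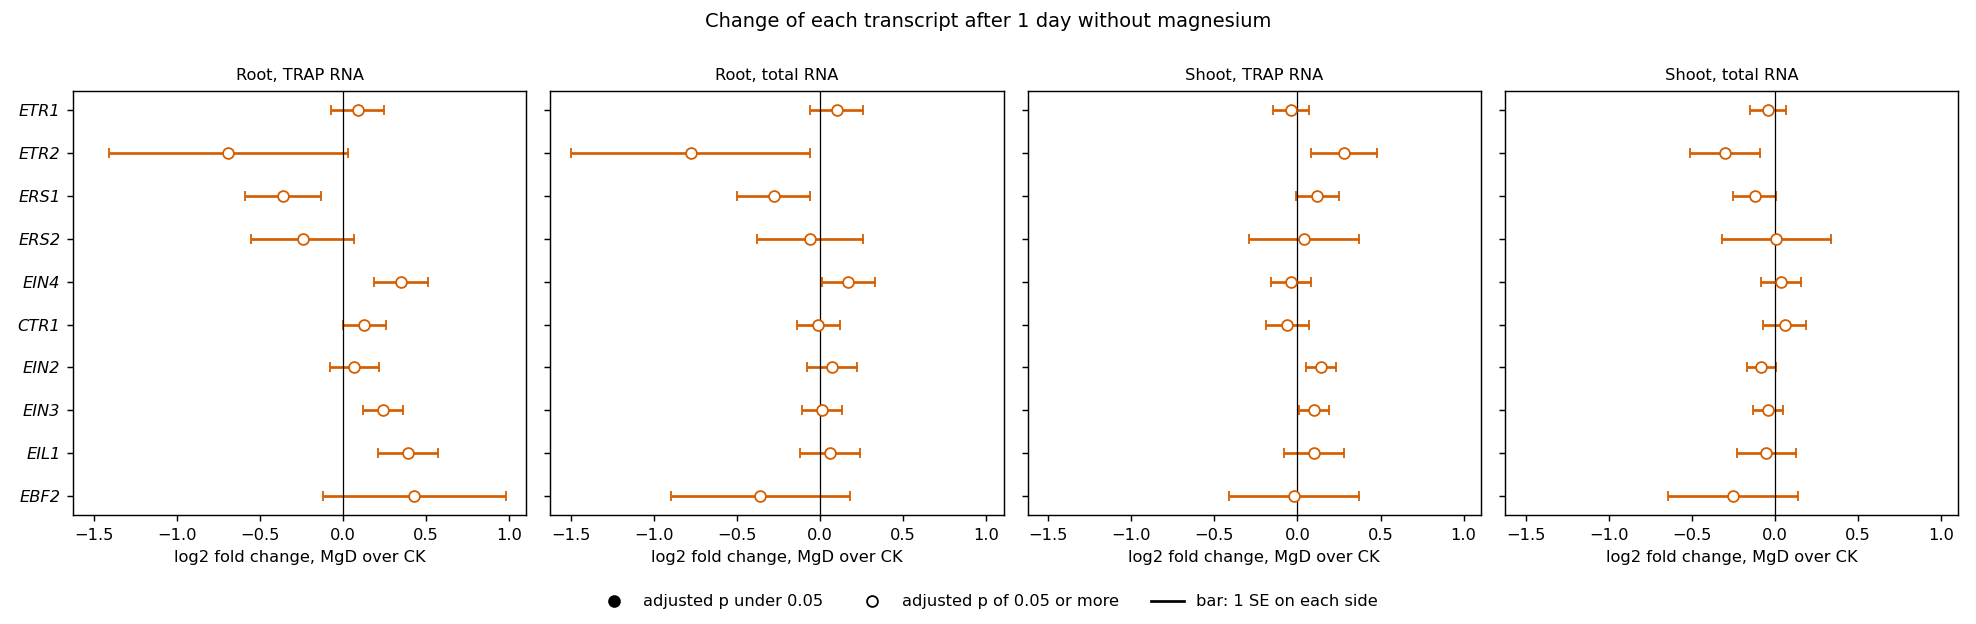
Log2 fold change of MgD over CK for the 10 transcripts (horizontal axes) in root TRAP, root total, shoot TRAP and shoot total RNA, with bars of 1 SE on each side. All symbols are open, since no adjusted p was under 0.05, and the bars of ETR2 and EBF2 in roots are the widest.

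Translational efficiency, tested as the difference between the magnesium response of TRAP RNA and that of total RNA, was not called for a member in either tissue (0% of 20311 genes in roots and 0% of 19341 in shoots; unadjusted p under 0.05 for 0 members and for 968 and 764 genes; DESeq2 called 0 members and 2 and 0 genes). In roots the interaction of EBF2, whose translation EIN2 is known to limit, was 0.79 ± 0.77 on the log2 scale, with an interval of -0.90 to 2.48. In shoots that of ETR2 was 0.58 ± 0.29, with an interval of -0.03 to 1.19. The magnesium response also did not differ between root and shoot for any member, in total RNA (0.0236% of 21163 genes called) or in TRAP RNA (0%), with no member at an unadjusted p under 0.05 and none called by DESeq2.

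Ribosome-captured RNA was set against total RNA to ask which of these transcripts the tagged ribosomes held. In roots, ERS1 was lower in TRAP RNA and EIN3 was higher under MgD, and ERS1, EIN4 and EIL1 were lower and ERS2 higher under CK. These are 2 of 10 members under MgD, where 52.5% of all genes were called, and 4 of 10 under CK, where 48.2% were called, so the members were not called more often than genes at large. The median log2 fold change of the members was -0.25 under MgD and -0.38 under CK, beside -0.06 over all genes in both. On the deposited TPM, unscaled, the median over all genes was -0.48 under MgD and -0.46 under CK, so directions here are relative to the bulk of genes. By edgeR 4973 genes were higher and 5695 lower in TRAP RNA under MgD, and 4597 and 5188 under CK, beside 2174 and 9567 under MgD and 1889 and 9202 under CK by limma on log2(TPM + 1). With only the 6 libraries of the compared groups in the fit, none of the 4 CK calls was kept (adjusted p between 0.0558 and 0.0839), and 4 members were called under MgD.

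ERS1 had 43.7, 41.5 and 38.0 CPM in Root TRAP MgD, against 73.6, 68.0 and 80.1 CPM in Root Total MgD. Every TRAP library lay below every total library, and the log2 fold change was -0.87 ± 0.23 (1.82-fold lower, edgeR adjusted p 0.00656). Under CK it had 72.3, 46.8 and 39.1 CPM in TRAP RNA, against 110.0, 64.9 and 95.9 CPM in total RNA. There 1 TRAP library lay within the range of total RNA, and the log2 fold change was -0.79 ± 0.23 (edgeR adjusted p 0.0122). This call was lost without Root Total CK replicate 1 (adjusted p 0.0520) and without the libraries of number 4 (0.125).

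ERS2, the least abundant receptor in root total RNA, went the other way. It had 7.54, 8.12 and 5.82 CPM in Root TRAP MgD, against 3.54, 4.13 and 5.52 CPM in Root Total MgD, with no overlap. The log2 fold change of 0.71 ± 0.32 missed the threshold (edgeR adjusted p 0.0777). It was called with only the compared groups in the fit (0.72, adjusted p 0.0248) and with the submitters' number as a replicate block (0.89, adjusted p 0.0431). Under CK it had 13.0, 5.58 and 6.98 CPM in TRAP RNA, against 4.02, 3.73 and 5.84 CPM in total RNA, where 1 TRAP library lay within the range of total RNA. The log2 fold change of 0.89 ± 0.31 was called (edgeR adjusted p 0.0317), and without Root TRAP CK replicate 1, the highest library, it was 0.45 and not called (adjusted p 0.189). It was also not called without Root Total CK replicate 1 (adjusted p 0.0733) or Root Total CK replicate 2 (0.109), and on unscaled TPM it was 0.27 (limma adjusted p 0.387).

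EIN4, a receptor of the second subfamily, had 17.8, 27.4 and 19.3 CPM in Root TRAP CK, against 28.8, 31.4 and 31.0 CPM in Root Total CK, without overlap. Its log2 fold change was -0.52 ± 0.16 (edgeR adjusted p 0.0188), and each of 4 single libraries, when left out, ended the call (adjusted p between 0.0537 and 0.0650), as did leaving out the libraries of number 4 (-0.43, adjusted p 0.141). EIL1 had 18.7, 22.2 and 31.0 CPM in Root TRAP CK, against 30.2, 34.3 and 39.1 CPM in Root Total CK, and the groups overlapped in 1 library. Its log2 fold change was -0.54 ± 0.18 (edgeR adjusted p 0.0226), and this call too ended without any of 4 single libraries (adjusted p between 0.0555 and 0.0941). Under MgD neither gene overlapped between RNA types. The log2 fold changes there were -0.34 ± 0.16 for EIN4 and -0.21 ± 0.18 for EIL1, with edgeR adjusted p of 0.0903 and 0.339.

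EIN3 was the only member higher in TRAP than in total RNA, and past the threshold, in both tissues under MgD. In roots it had 256, 254 and 251 CPM in Root TRAP MgD, against 177, 191 and 163 CPM in Root Total MgD, without overlap. The log2 fold change was 0.50 ± 0.12 (edgeR adjusted p 0.00473), and on unscaled TPM, where the median of all genes fell by 0.48, it was -0.01. Under CK it had 240.0, 203 and 204 CPM in TRAP RNA, against 178, 174 and 178 CPM in total RNA, and the difference of 0.27 ± 0.12 missed the threshold (edgeR adjusted p 0.0858; DESeq2 adjusted p 0.0290).

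In shoots, EIN3 was higher in TRAP RNA in both media, and ETR2 was higher under MgD. These were 2 of 10 members under MgD, where 45.8% of all genes were called, and 1 of 10 under CK, where 44.9% were, 4118 higher and 4560 lower by edgeR beside 5042 and 3776 by limma on log2(TPM + 1). EIN3 had 271, 251 and 237 CPM in Shoot TRAP MgD, against 159, 158 and 154 CPM in Shoot Total MgD, and 242, 225 and 240.0 CPM in Shoot TRAP CK, against 160.0, 162 and 152 CPM in Shoot Total CK. The TRAP libraries lay above the total libraries throughout, with log2 fold changes of 0.68 ± 0.09 under MgD (1.61-fold, edgeR adjusted p 1.15e-05) and 0.54 ± 0.09 under CK (1.46-fold, edgeR adjusted p 0.000122). ETR2 had 6.34, 6.11 and 6.74 CPM in Shoot TRAP MgD, against 3.01, 3.69 and 3.91 CPM in Shoot Total MgD. The groups did not overlap, and the log2 fold change was 0.85 ± 0.20 (1.80-fold, edgeR adjusted p 0.00235). In the model of all 24 libraries, which share one estimate of the spread, the same 0.85 had an SE of 0.59 and was not called (adjusted p 0.274). Under CK it was 0.27 ± 0.21 (edgeR adjusted p 0.303), and the difference between the media is the interaction given above, which was not called.

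EBF2 was at 105, 68.6 and 51.4 CPM in Shoot TRAP MgD, against 41.0, 74.9 and 34.8 CPM in Shoot Total MgD, with overlap. Its log2 fold change was 0.58 ± 0.39 (edgeR adjusted p 0.263). The submitters' library numbers paired the shoot libraries, and with the number as a replicate block it was 0.40 (edgeR adjusted p 0.0217). In CK roots EBF2 differed most of the members, with overlap and without a call (-1.12 ± 0.55, edgeR adjusted p 0.113, interval -2.32 to 0.09). It was called there by limma on log2(TPM + 1) (-1.53, adjusted p 0.0377) and log2(TPM + 0.1) (-1.63, 0.0383). Calls also came with the labels' number as a replicate block (-1.11, edgeR adjusted p 0.0467) and without Root Total CK replicate 1 (-1.43, 0.0443). In MgD roots it was -0.32 ± 0.55 (edgeR adjusted p 0.638). CTR1 and EIN2 were not called, with log2 fold changes between -0.15 and 0.28 for CTR1 and between -0.17 and 0.06 for EIN2 over the 4 comparisons. In CK shoots neither overlapped between RNA types. There CTR1 was higher in TRAP RNA (0.28 ± 0.13, edgeR adjusted p 0.0869) and EIN2 lower (-0.17 ± 0.09, edgeR adjusted p 0.125). CTR1 did not overlap in CK roots either, where it was lower (-0.15 ± 0.13, edgeR adjusted p 0.369).

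**Figure D3:**
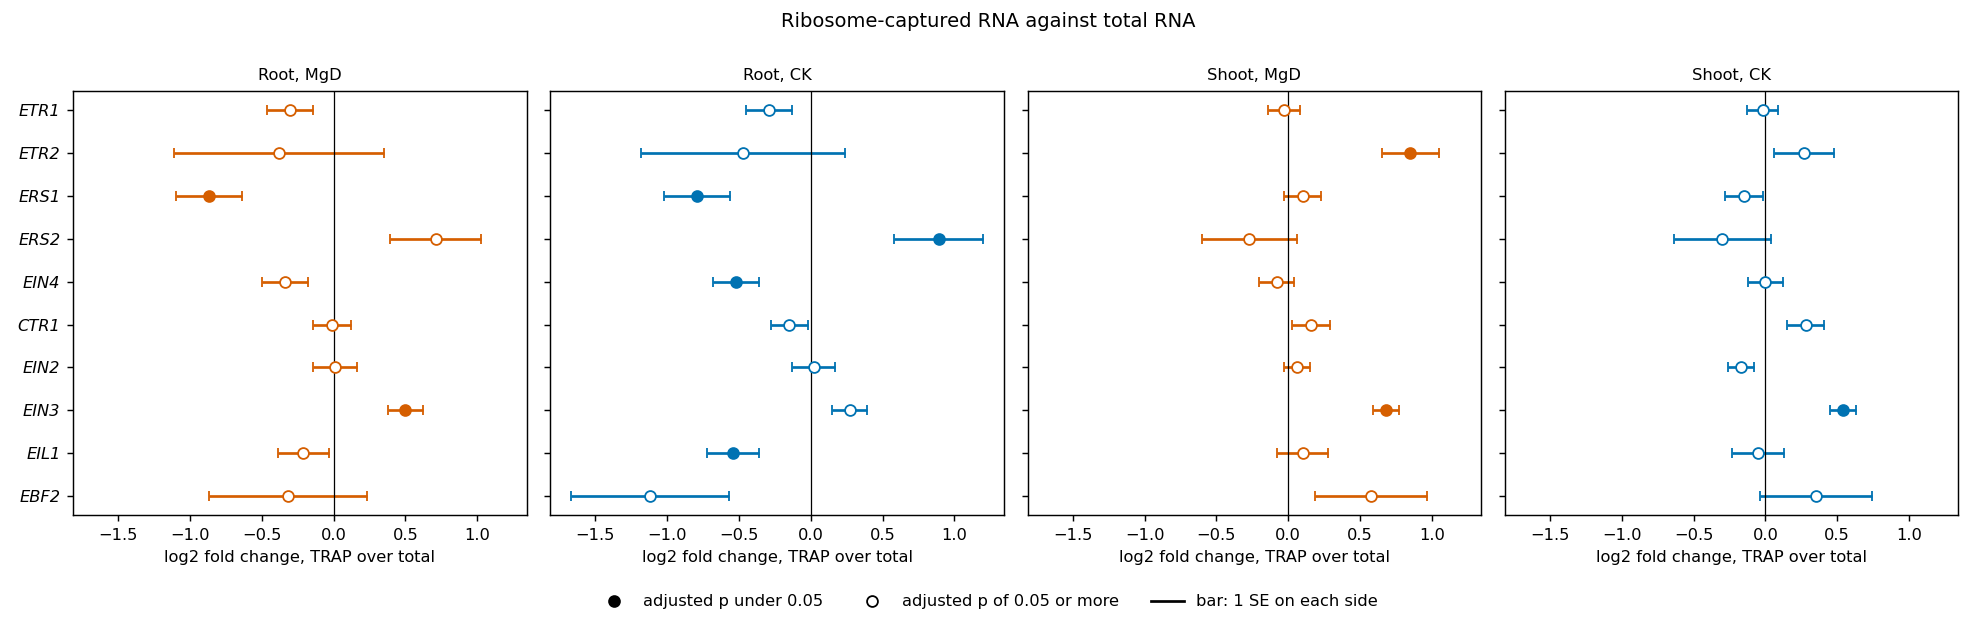
Log2 fold change of TRAP over total RNA for the 10 transcripts (horizontal axes), in roots and shoots under MgD and CK, with bars of 1 SE on each side and filled symbols for an adjusted p under 0.05. ERS1 is filled and left of 0 in both root panels, and EIN3 is filled and right of 0 in all panels but that of CK roots.

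Markers of cell types moved with the RNA type. The 8 leaf markers summed to between 646 and 1190 TPM in Root TRAP MgD and between 714 and 1610 in Root TRAP CK, against 268 to 454 in Root Total MgD and 728 to 892 in Root Total CK, with 5 called higher under MgD, and 3 higher and 1 lower under CK. The 6 root markers summed to between 111 and 145 TPM in Root TRAP MgD and between 150.0 and 174 in Root TRAP CK, against 329 to 502 in Root Total MgD and 311 to 679 in Root Total CK, and 5 of 6 were called lower in each medium. The 6 root hair markers summed to between 2.74 and 4.86 TPM in Root TRAP MgD and between 2.01 and 4.85 in Root TRAP CK, against 61.4 to 151 in Root Total MgD and 33.4 to 114 in Root Total CK, and 5 of 6 were called lower in each medium, with none at 0 counts. The 3 phloem companion cell markers summed to between 181 and 230 TPM in Root TRAP MgD and between 120.0 and 145 in Root TRAP CK, against 60.5 to 71.3 in Root Total MgD and 53.2 to 73.9 in Root Total CK, and all 3 were called higher. In shoots these 3 summed to between 161 and 191 TPM in Shoot TRAP MgD and between 205 and 246 in Shoot TRAP CK, against 102 to 110.0 in Shoot Total MgD and 105 to 128 in Shoot Total CK, and 2 were called higher in each medium. The 5 stomatal lineage and guard cell markers were FAMA, MYB60, SDD1, MUTE and the gene TMM. They summed to between 6.71 and 6.74 TPM in Shoot TRAP MgD and between 6.25 and 6.98 in Shoot TRAP CK. Their sums in total RNA were 25.4 to 27.8 TPM in Shoot Total MgD and 26.2 to 32.2 in Shoot Total CK. All 5 were called lower in TRAP RNA. The part of these cell types in the differences of the members was not tested. In such bulk samples, which cells' ribosomes were captured and how far each message was on ribosomes cannot be told apart.

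The enrichment in TRAP RNA under CK was then compared between root and shoot. Of the 10 members only EIN4 was called (28.9% of all genes were, 3425 higher and 2692 lower, beside 1614 and 8371 by limma on log2(TPM + 1)), with a log2 difference of -0.54 ± 0.19 (edgeR adjusted p 0.0406). It combined -0.52 in roots with 0.00 in shoots. Leaving out any of 9 of the 12 CK libraries ended this call, with adjusted p between 0.0527 and 0.107, as did leaving out the libraries of number 4 (-0.46, adjusted p 0.138) or fitting only the compared groups (adjusted p 0.102). ERS2 had the largest positive difference, 1.17 ± 0.49 (adjusted p 0.0760, and 1.52 with adjusted p 0.0489 without the libraries of number 4), and EBF2 the largest negative one, -1.49 ± 0.69 (adjusted p 0.114). EBF2 was called without Root TRAP CK replicate 3 (-1.99, edgeR adjusted p 0.0466) and without Root Total CK replicate 1 (-1.82, 0.0487). EIL1, at -0.51 ± 0.26 (edgeR adjusted p 0.145), was called without Root TRAP CK replicate 3 (-0.74, 0.0269), among other alternatives. With either library number as a replicate block 3 members were called, ERS1 among them (-0.79, adjusted p 0.0214 with the submitters' number).

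Roots and shoots were compared under CK to place the members by tissue. In total RNA, ETR2, ERS1 and CTR1 were higher and EIL1 was lower in roots, and in TRAP RNA, ETR2, ERS1 and ERS2 were higher and EIN4, EIL1 and EBF2 lower. These were 4 of 10 members in total RNA, where 64.8% of all genes were called, and 6 of 10 in TRAP RNA, where 68.8% were. In TRAP RNA the called receptors therefore did not share a direction, while in total RNA no receptor was called lower in roots. In unscaled TPM every receptor was higher in each Root Total CK library than in each Shoot Total CK library. On unscaled TPM the median of all genes was 0.73 higher in root total RNA and 0.20 higher in root TRAP RNA, and there EIL1 in total RNA had a log2 fold change of 0.23, the opposite sign. In total RNA edgeR called 7121 genes higher and 6592 lower in roots, beside 13361 and 3854 by limma on log2(TPM + 1).

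ETR2 was at 10.6, 10.4 and 38.4 CPM in Root Total CK, against 3.87, 4.32 and 4.59 CPM in Shoot Total CK. All root libraries lay above all shoot libraries, with a log2 fold change of 2.22 ± 0.59 (4.66-fold, edgeR adjusted p 0.00282). Without Root Total CK replicate 3, the library of number 4, it was 1.31 (adjusted p 0.0455), and without all 3 libraries of that number 1.30. In TRAP RNA it was at 11.6, 3.69 and 28.1 CPM in Root TRAP CK, against 4.74, 4.71 and 6.36 CPM in Shoot TRAP CK. There the lowest root library fell below the shoot libraries, and the log2 fold change of 1.46 ± 0.58 (edgeR adjusted p 0.0302) was 0.53 and not called without Root TRAP CK replicate 3 (adjusted p 0.407), and 0.52 without the libraries of number 4. It also missed the threshold without Shoot TRAP CK replicate 1 or 2 (adjusted p 0.0813 and 0.0800), with only the compared groups in the fit (0.0629) and with recovered reads for Root Total MgD replicate 3 (0.0541).

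ERS1 was at 110.0, 64.9 and 95.9 CPM in Root Total CK, against 34.1, 37.2 and 37.3 CPM in Shoot Total CK, and at 72.3, 46.8 and 39.1 CPM in Root TRAP CK, against 27.1, 34.0 and 39.3 CPM in Shoot TRAP CK. Total RNA separated the tissues and TRAP RNA did so but for 1 library in each. The log2 fold changes were 1.32 ± 0.19 (2.50-fold, edgeR adjusted p 3.55e-06) and 0.66 ± 0.19 (1.58-fold, edgeR adjusted p 0.00472), and the second was lost without Root TRAP CK replicate 1 (0.36, adjusted p 0.0759). On unscaled TPM the first was 2.06 by limma on log2(TPM + 1). ERS2 had 13.0, 5.58 and 6.98 CPM in Root TRAP CK, against 3.30, 4.15 and 4.05 CPM in Shoot TRAP CK, without overlap. It was 2.22-fold higher (1.15 ± 0.35, edgeR adjusted p 0.00560), and 0.71 without Root TRAP CK replicate 1 (adjusted p 0.0741), while in total RNA it had a log2 fold change of -0.02 ± 0.34.

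EIN4 had 17.8, 27.4 and 19.3 CPM in Root TRAP CK, against 30.9, 33.3 and 36.0 CPM in Shoot TRAP CK, without overlap (-0.64 ± 0.14, edgeR adjusted p 0.000337). CTR1 was 1.36-fold higher in Root Total CK than in Shoot Total CK (0.45 ± 0.13, edgeR adjusted p 0.00490), with a log2 fold change of -0.01 ± 0.13 in TRAP RNA, and on unscaled TPM the difference in total RNA was 1.22 by limma on log2(TPM + 1). EIL1 was 1.51-fold lower in total RNA (-0.60 ± 0.18, edgeR adjusted p 0.00639) and 2.15-fold lower in TRAP RNA (-1.10 ± 0.18, edgeR adjusted p 1.58e-05). Its partner EIN3 had 0.16 ± 0.10 in total RNA and -0.13 ± 0.10 in TRAP RNA, neither called.

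EBF2 was at 24.0, 7.73 and 35.3 CPM in Root TRAP CK, against 53.9, 86.8 and 87.5 CPM in Shoot TRAP CK. The tissues did not overlap, and EBF2 was 3.40-fold lower in roots (-1.77 ± 0.50, edgeR adjusted p 0.00390). In total RNA it had 22.6, 36.9 and 84.0 CPM in Root Total CK, against 62.4, 69.8 and 42.3 CPM in Shoot Total CK, with overlap (-0.28 ± 0.48, edgeR adjusted p 0.629). In TRAP RNA lane and tissue cannot be told apart, since the shoot TRAP libraries carried another lane label.

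**Figure D4:**
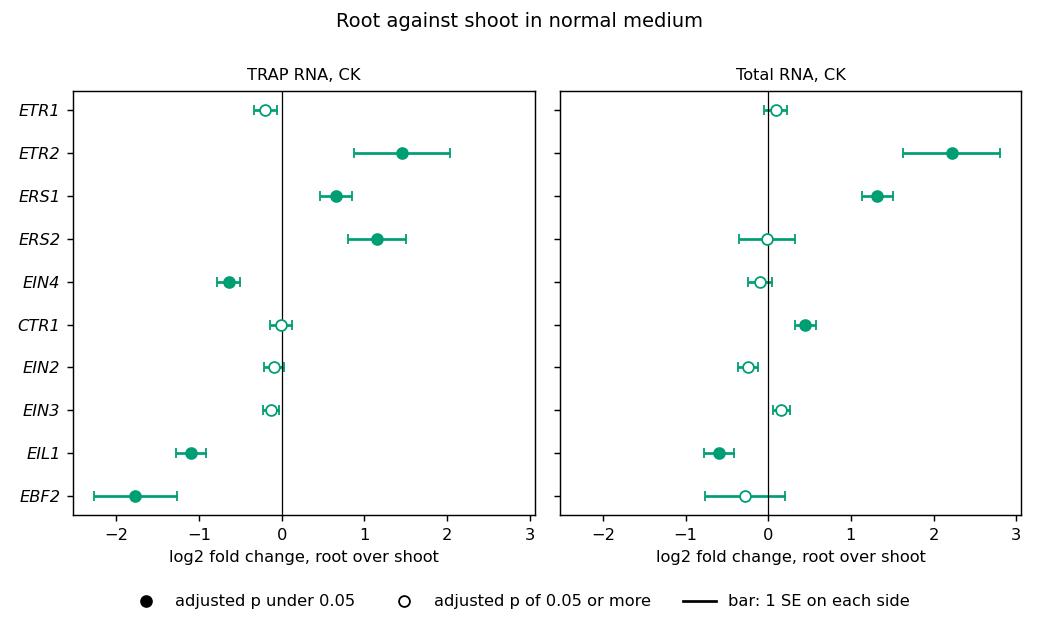
Log2 fold change of root over shoot under CK for the 10 transcripts (horizontal axes), in TRAP RNA and total RNA, with bars of 1 SE on each side and filled symbols for an adjusted p under 0.05. ETR2 and ERS1 are filled and right of 0 in both panels, and EIL1 is filled and left of 0 in both.

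The root libraries of a group differed more in ETR2 and EBF2 than in the other members. In roots the SD between libraries of a group, on the scale of log2(CPM + 0.5), was 1.01 for ETR2 and 0.80 for EBF2, which ranked at percentiles 99.4 and 98.4 of all genes tested, against a median of 0.27. It was between 0.09 and 0.39 for the other 8, and EIN3, at 0.09 and percentile 1.04, was among the least variable genes of the root libraries. In shoots EBF2 had an SD of 0.49 at percentile 96.0 and ETR2 0.16 at percentile 33.4, while EIN2, at 0.05, stood at percentile 0.124. The high values of ETR2 fell on the 3 root libraries with number 4 in the submitters' names, at 20.2 CPM in Root Total MgD, 28.1 in Root TRAP CK and 38.4 in Root Total CK, against 3.69 to 12.5 CPM in the other 9 root libraries. EBF2 stood at 53.1, 35.3 and 84.0 CPM in the same 3 libraries, against 7.73 to 36.9 CPM in the other 9, so that its TRAP library overlapped them. No source used here says what the number marks.

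An F test of this number beside the group, added after these values were seen, called ETR2 in roots (edgeR adjusted p 0.0233) and no other member, with 2.05% of all genes called. Each p of this test is for any difference among the 4 numbers and not for a single pair. Libraries of number 4 were higher than those of number 1 by 1.58 on the log2 scale for ETR2 and by 1.13 for EBF2, whose F test had an edgeR adjusted p of 0.217. In shoots, where 8.68% of all genes were called, EBF2 (adjusted p 0.000226) and EIL1 (0.00635) were called, and ETR2 was not (0.712). Shoot libraries of number 2 were higher than those of number 1 by 0.81 on the log2 scale for EBF2 and by 0.44 for EIL1.

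EBF1, the F-box partner of EBF2, followed the number in another order. In roots it was at 534 CPM in the Root TRAP MgD library of number 1, 484 in that of Root TRAP CK, 182 in that of Root Total MgD and 274 in that of Root Total CK, against 51.8 to 96.2 CPM in the 8 libraries of numbers 2, 3 and 4. The libraries of number 1 lay above all others, with log2 differences of -2.27, -2.91 and -2.22 for numbers 2, 3 and 4 against number 1 (edgeR adjusted p 0.00195 over the numbers). ARL and ARGOS, which lower the plant's sensitivity to ethylene, were higher in number 4 than in number 1 by 3.03 and 2.78 on the log2 scale (adjusted p over the numbers 0.000741 and 0.0122). Of the 9 response genes, RAV1 and TEM1 differed by 2.58 and 1.61 between numbers 4 and 1 (adjusted p over the numbers 0.00150 and 0.0194), and RAP2.3 and HCHIB, a basic chitinase, by -1.00 and -1.49 (0.0264 and 0.0279). The other 5 were not called.

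**Figure D5:**
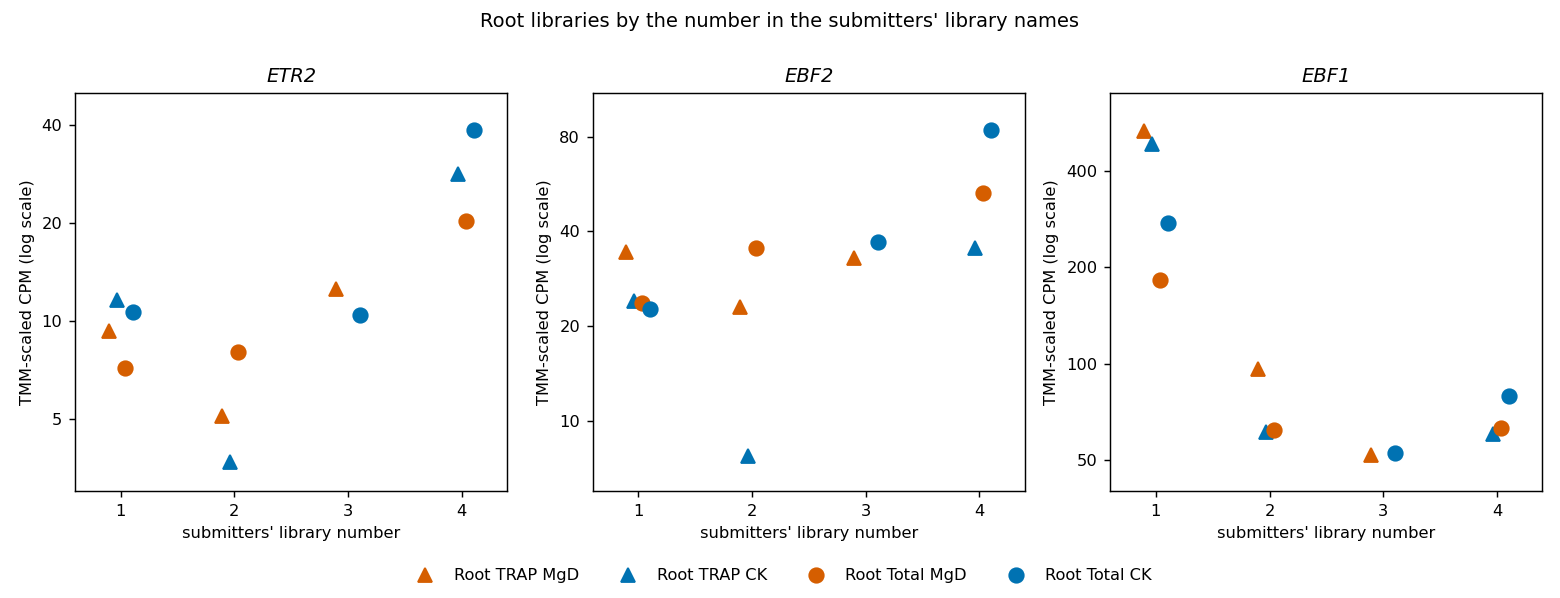
ETR2, EBF2 and EBF1 in the 12 root libraries, in TMM-scaled CPM on log axes, by the number in the submitters' library names. Symbols give the RNA type and colours the medium. ETR2 is highest in the 3 libraries of number 4, and EBF1 in the 4 libraries of number 1, where it lies between 182 and 534.

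The 24 other genes of the pathway that were listed beside the members gave the same picture for magnesium. Of them 23 were tested in the model of all libraries, EIL2 being the one left out by the filter, and none was called in any of the 4 comparisons of MgD with CK. In TRAP RNA against total RNA, the regulators of EIN2 and EIN3 turnover had 2 of 7 higher and 1 of 7 lower in roots in each medium, and 2 of 7 in each direction in shoots in each medium. Over all genes 52.5% were called in MgD roots, 48.2% in CK roots, 45.8% in MgD shoots and 44.9% in CK shoots, so that 3 of 7 and 4 of 7 lay near these shares. ETP1, an F-box protein that targets EIN2, was higher in Root TRAP MgD (1.06 ± 0.14, edgeR adjusted p 6.46e-05) and in Root TRAP CK (0.83 ± 0.14, adjusted p 0.000443). EBF1 was higher in Shoot TRAP MgD (0.82 ± 0.17, adjusted p 0.000931) and Shoot TRAP CK (0.64 ± 0.17, adjusted p 0.00567). XRN4, the exoribonuclease also called EIN5, was lower in Root TRAP MgD (-0.47 ± 0.15, adjusted p 0.0209) and Root TRAP CK (-0.48 ± 0.15, adjusted p 0.0206).

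Of the 6 receptor helpers, 1 was lower under MgD, and 1 was higher and 1 lower under CK, in root TRAP RNA, and 1 of 5 tested was higher in shoot TRAP RNA in each medium. That gene, RAN1, is a copper transporter that supplies the receptors with their cofactor, and it had log2 fold changes of 0.56 ± 0.10 under MgD and 0.54 ± 0.10 under CK in shoots (edgeR adjusted p 0.000221 and 0.000306). Of the 9 ethylene response genes, 1 was higher in root TRAP RNA in each medium, RAP2.3, with 2.23 ± 0.37 under MgD and 2.01 ± 0.36 under CK (edgeR adjusted p 0.000373 and 0.000920). In shoots 4 were higher and 1 lower under MgD, and 5 higher and 1 lower under CK, among them RAV1 (1.43 ± 0.26 and 1.31 ± 0.27). These 5 and 6 of 9 stand beside the 45.8% and 44.9% of all genes, and the 1 of 9 in roots beside 52.5% and 48.2%. EIL3, the tested relative of EIN3, was higher in shoot TRAP RNA (0.36 ± 0.12 under MgD and 0.46 ± 0.12 under CK).

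Between tissues under CK, 5 of 6 receptor helpers were higher in root total RNA and none was lower. Of 21163 genes, 7121 were higher there and 6592 lower, 64.8% in either direction. RAN1 had the smallest p of the list (1.64 ± 0.13, edgeR adjusted p 2.61e-10), and the median log2 fold change of the list was 1.96. In TRAP RNA 3 of 6 helpers were higher and none was lower, where 68.8% of all genes were called. Among the helpers, ARL and ARGOS followed the library number in roots. Of the response genes, 3 were higher and 1 lower in roots in both RNA types, and RAP2.3 was lower in total RNA (-1.25 ± 0.30) and higher in TRAP RNA (1.17 ± 0.30). HCHIB had the largest difference of the list, 5.06 ± 0.54 in total RNA. Of the turnover genes, 2 were higher and 1, ETP1 (-1.15 ± 0.14), was lower in total RNA, and 4 were higher and 2 lower in TRAP RNA, where 68.8% of all genes were called.

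Over the 24 libraries, the genes whose log2(TPM + 1) followed a member most closely were sought among 14719 genes with a mean of at least 5 TPM. For ETR2 they were AT1G30820, AT5G15120 and AT5G44730, with Pearson correlations of 0.944, 0.923 and 0.917. For EIN2 they were EXO70A1, HIT1 and AT5G05570 (0.961, 0.960 and 0.955), and for EBF2 CAC3, NUFIP and AT1G10490 (0.819, 0.810 and 0.793). The 24 points share tissue, RNA type and library number, and the correlations are given as a description.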

How the data were processed

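RNA of 24 libraries, 3 in each of 8 groups, was made into libraries with the KAPA mRNA HyperPrep kit, per the labels' protocols. The deposited counts are whole reads per gene, made by the authors with FastQC, Trimmomatic, STAR 2.7.6a and Subread 2.0.0, per the submitters' processing notes, with no settings stated. Low counts of 1 to 20 were mostly even (81.5% to 92.6% per library), as when both mates of a pair are counted, so counting error is larger than the counts imply. The TPM values were deposited by the authors, normalized to gene length and library. The files name no genome build; the gene lengths behind the TPM matched RefSeq's TAIR10.1 exon lengths within 0.1% for 99.27% of 24364 genes, and promoters were read from that assembly. The submitters' 8 removed samples were not analysed here.

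For the counts, edgeR 4.0.16 in R 4.3.3 gave quasi-likelihood F tests (filterByExpr, TMM, robust glmQLFit), adjusted by Benjamini-Hochberg over all genes and called under 0.05. Each tissue's 12 libraries were fitted together, and all 24 were fitted together for comparisons between tissues. SE is the log2 fold change over the root of F, and 95% intervals use the test's own degrees of freedom. The steps were checked on simulated counts. Alternatives were DESeq2 1.42.0, RLE factors, no filter, limma 3.58.1 on log2(TPM + 1) and log2(TPM + 0.1), fits with either library number as a block, only the compared groups or all libraries in the fit, recovered reads for Root Total MgD replicate 3, and leaving out each library.

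A number was taken to pair libraries only if deviations from group means correlated at an r of 0.1 or more in every same-numbered pair. By this rule the submitters' numbers pair the shoot libraries (r between 0.14 and 0.607 in all 13 pairs, median 0.37). They miss it in roots, where the lowest r was 0.026 and the median 0.436, as do the replicate numbers of the labels. Pairs of unlike number were not compared. Root libraries of the same number can still share levels, as those of ETR2 and EBF1 did. All 10 members were tested in each comparison, and a member not named for a comparison was not called in it. Of the other pathway genes, examples come from the up to 3 of each list with the smallest p in a comparison, and the genes most like a member are the 3 with the highest Pearson correlation of log2(TPM + 1). Members and lists were chosen with earlier results of these data known.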

Additional observations from a re-analysis of the deposited data

Results flagged for a closer look

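The difference between TRAP and total RNA of EIN4 under CK passed a test of its difference between the tissues. The log2 difference, root minus shoot, was -0.54 (SE 0.19, edgeR adjusted p 0.0406), from 17.8, 27.4 and 19.3 CPM in Root TRAP CK, against 28.8, 31.4 and 31.0 CPM in Root Total CK, and from 30.9, 33.3 and 36.0 CPM in Shoot TRAP CK, against 33.8, 32.5 and 31.2 CPM in Shoot Total CK. All 3 root TRAP libraries lay below the root total libraries, while the shoot groups overlapped. The call was lost without any of 9 of the 12 libraries (edgeR adjusted p between 0.0527 and 0.107). It was also lost with only the compared groups in the fit (0.102) and without the root libraries of number 4 (0.138). On unscaled log2(TPM + 0.1) the difference was -1.14, where the median over all genes was -0.57. Lane and RNA type cannot be told apart in the shoot libraries of this comparison.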

How the results depend on the processing

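The magnesium comparisons called no member under any alternative run. Over the comparisons of medium, of RNA type, of tissue and of enrichment between tissues together, 80 changes of members under 0.5 on the log2 scale were not called. Of these, 45 had another sign under at least 1 alternative. At least 1 alternative on counts called 7 of them, and limma on unscaled TPM called 17. ETR2 in root TRAP RNA, MgD against CK, turned to 0.08 with the submitters' number as a replicate block and to 0.23 without the 3 libraries of number 4, an alternative chosen after seeing the data. Leaving out single libraries gave between -1.15 and 0.23 for it, between -1.39 and 0.14 in root total RNA, and between -1.69 and 0.16 for its root minus shoot difference in TRAP enrichment. On unscaled TPM with either pseudocount, EIN3 in Root TRAP MgD against total was -0.01, and EIL1 in root against shoot total RNA was 0.23 and 0.24.

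Members called, TRAP against total, became 6 on TPM with either pseudocount and 4 in the compared groups alone for MgD roots. For CK roots they became 7 on TPM, 0 in the compared groups alone, 2 without the libraries of number 4, and 1 to 3 without single libraries. For MgD shoots they became 1 in the model of all 24 libraries, where ETR2 was not called, and for CK shoots 2 on TPM, with the labels' number as a replicate block and in the compared groups alone. For root against shoot in total RNA they became 8 on TPM. For the difference in enrichment they became 7 on TPM, 3 with either number as a replicate block, 0 in the compared groups alone and 0 to 3 without single libraries. The fits on TPM changed both the scaling and the test, and the fits of the compared groups hold fewer libraries. The cause of the shifts was not tested.

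Over all genes, MgD against CK gave 1 call by DESeq2, 1 on log2(TPM + 1) and 7 in the model of all libraries for root total RNA, 169 and 133 by DESeq2 and that model for root TRAP RNA, and 64 for shoot TRAP RNA with the labels' number as a replicate block, beside 2 with the submitters' number and 16 by DESeq2. The labels' numbers did not pair the libraries (lowest r -0.549 in shoots). With the submitters' number as a replicate block, ETR2 in root against shoot TRAP RNA was 0.60 (adjusted p 0.181) and ERS2 in Root TRAP CK against total 0.82 (adjusted p 0.0583), neither called. This block changed no call of a member in a comparison within shoots other than EBF2 under MgD. The difference between tissues in the magnesium response gave 5 calls in total RNA, 14 by DESeq2 and 0 to 22 without single libraries, and in TRAP RNA 0 calls, 151 by DESeq2 and 133 without Root TRAP CK replicate 3. The lowest depth behind a member was in shoots, at 37 to 220 counts for ETR2 and ERS2, and its part in their errors was not tested.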
